A study of Schizosaccharomyces pombe with 30 samples.

Results

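The dg/dh repeat windows of the 3 Schizosaccharomyces pombe centromeres were taken from a table of 1500 windows of 300 bp in which H3K9me2, histone H3 dimethylated on lysine 9, was counted by chromatin immunoprecipitation and sequencing (ChIP-seq). A window was a member if at least 150 of its bases lay in one of 6 arrays of outer repeats, 1 on the left and 1 on the right of each centromere. This gave 333 of the 1500 windows: 38 in array I left, 40 in I right, 47 in II left, 43 in II right, 63 in III left and 102 in III right. All window positions of the 6 arrays were in the table, so the filter that made it removed none of them. The limits of the arrays of centromere II had been read to the nearest kb from a drawing and those of centromeres I and III from sequence similarity to them, so windows at the array ends are the least certain members.

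The libraries came from 5 genotypes, all built in the MAT ΔREIII background with fluorescent silencing reporters at the mating-type locus and grown in rich medium at the same temperature. Δfkh2 (strain PAS798, 3 libraries A, B and C) lacks a forkhead transcription factor, and Δprw1 (PAS799, 3 libraries A, B and C) lacks a WD-repeat protein. Both factors act with complexes of Clr6, a class I histone deacetylase. clr6-1 (PAS839, 2 libraries A and B) carries a hypomorphic allele of the essential clr6 gene, so deacetylase activity is weakened and not removed. clr3-D232N (PAS842, 3 libraries A, B and C) carries a catalytically dead form of Clr3, the class II deacetylase of the SHREC complex, and wild-type (PAS332, 2 libraries B and C) is the parent. Each genotype is represented by 1 strain, and 1 further clr6-1 and 1 further wild-type library had been removed by the authors as outliers and were not analysed here. The deletion of fkh2 and prw1 could not be checked in the counts, because the authors masked both genes in every library.

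In fission yeast the dg and dh repeats flank the central core of each centromere, on which the kinetochore forms. Transcripts of the repeats feed the RNA interference machinery, which brings the H3K9 methyltransferase Clr4 to them, and the repeats are the best-known sites where pericentromeric heterochromatin starts. Deacetylation of histones by Clr3 and Clr6 is a known requirement for keeping such chromatin silent.

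The arrays are made almost wholly of sequence found more than once, which decides what a window can show. Between 92.4% (II right) and 99.8% (III right) of the 34-base subsequences of an array occurred elsewhere on chromosomes I, II and III, and 291 of the 333 windows held no single-copy subsequence of that length. Reads were no longer than this after trimming, and no filter on mapping quality was stated for these counts, so a read that matches several copies was placed at one of them, and copies with the same sequence share their reads. The arrays hold noncoding RNA genes (319 windows overlap one), 3 tRNA genes and no protein-coding gene. Their GC content was 32.8% to 34.1%.

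The 4 windows printed here, from the plus strand of RefSeq assembly ASM294v3, carry the patterns described below. Capitals mark bases in 34-base runs present in all 6 arrays, except in the last window, where they mark a tRNA gene. The first had the highest mean level of all members over the 13 libraries and belongs to the high-copy sequences, the second had the highest such mean among low-copy sequences shared with another array, and the third fell most in Δfkh2. The last, with the leucine tRNA gene SPBTRNALEU.07 (chromosome II, 1644083 to 1644183, minus strand), had the lowest fold change in Δprw1, clr6-1 and clr3-D232N.
III:1079401-1079700: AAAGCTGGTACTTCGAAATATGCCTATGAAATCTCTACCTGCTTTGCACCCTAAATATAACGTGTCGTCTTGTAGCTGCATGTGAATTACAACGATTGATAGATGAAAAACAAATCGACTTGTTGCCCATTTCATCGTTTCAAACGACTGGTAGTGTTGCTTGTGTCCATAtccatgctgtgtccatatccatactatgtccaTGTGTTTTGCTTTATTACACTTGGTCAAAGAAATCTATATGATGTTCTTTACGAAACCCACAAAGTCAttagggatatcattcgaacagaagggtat
III:1110001-1110300: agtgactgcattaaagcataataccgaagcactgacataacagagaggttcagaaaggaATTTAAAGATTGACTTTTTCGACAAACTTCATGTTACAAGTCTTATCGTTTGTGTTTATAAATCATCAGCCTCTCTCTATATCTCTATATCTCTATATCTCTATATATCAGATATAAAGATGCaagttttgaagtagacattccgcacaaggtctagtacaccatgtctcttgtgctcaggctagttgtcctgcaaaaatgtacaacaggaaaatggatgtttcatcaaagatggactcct
III:1133701-1134000: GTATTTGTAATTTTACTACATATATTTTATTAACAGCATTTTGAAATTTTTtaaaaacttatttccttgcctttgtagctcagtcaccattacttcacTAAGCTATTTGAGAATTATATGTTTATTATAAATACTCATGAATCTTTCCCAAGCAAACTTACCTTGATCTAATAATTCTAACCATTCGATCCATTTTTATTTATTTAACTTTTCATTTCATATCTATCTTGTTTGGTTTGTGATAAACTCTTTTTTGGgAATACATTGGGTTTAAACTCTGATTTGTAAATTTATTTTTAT
II:1644001-1644300: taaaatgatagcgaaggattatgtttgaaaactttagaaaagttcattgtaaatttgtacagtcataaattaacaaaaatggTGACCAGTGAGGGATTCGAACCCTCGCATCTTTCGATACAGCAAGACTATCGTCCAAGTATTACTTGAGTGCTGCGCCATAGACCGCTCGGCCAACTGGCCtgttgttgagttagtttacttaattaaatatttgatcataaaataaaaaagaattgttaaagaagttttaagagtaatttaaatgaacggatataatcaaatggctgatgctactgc

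The tables held 4408669 to 12641248 fragments per library in bins of 5 kb, and counts in the windows were divided by size factors from those bins, which follow the unenriched genome. A normalized count of about 105 per window (105.1 to 106.2) was the background, defined as the median bin scaled to 300 bp. dg/dh windows took 13.2%, 28.02% and 15.8% of all binned fragments in Δfkh2 A, B and C, 17.5%, 40.7% and 23.4% in Δprw1 A, B and C, 43.6% and 46.4% in clr6-1 A and B, 11.6%, 13.0% and 14.9% in clr3-D232N A, B and C, and 44.1% and 34.8% in wild-type B and C. Libraries Δfkh2 B and Δprw1 B thus stood above the other libraries of their genotypes, and wild-type B above wild-type C. No input was part of the tables, so less H3K9me2 per repeat and fewer repeat copies in a strain cannot be told apart. The methods call the libraries biological replicates. The p-values set a difference against the spread between these libraries, which come from 1 strain per genotype.

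With scaling on the bins, H3K9me2 on the dg/dh windows was lowest in clr3-D232N and differed least from wild-type in clr6-1, with Δfkh2 and Δprw1 in between. With TMM scaling on the windows, Δprw1 differed least, at a median log2 fold change of 0.26 beside 0.42 for clr6-1. The median normalized count per window was 2589, 7903 and 3453 in Δfkh2 A, B and C, against 21327 and 11462 in wild-type B and C. It was 3373, 13813 and 4887 in Δprw1 A, B and C, and 18286 and 20080 in clr6-1 A and B. In clr3-D232N it was 2127, 2362 and 2737. All Δfkh2 and clr3-D232N libraries lay below both wild-type libraries, Δprw1 B lay between them, and both clr6-1 libraries lay between them. Even the lowest library, clr3-D232N A, kept a median 20.1 times the background. Wild-type B and C had medians 203 and 109 times the background.

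**Figure D1:**
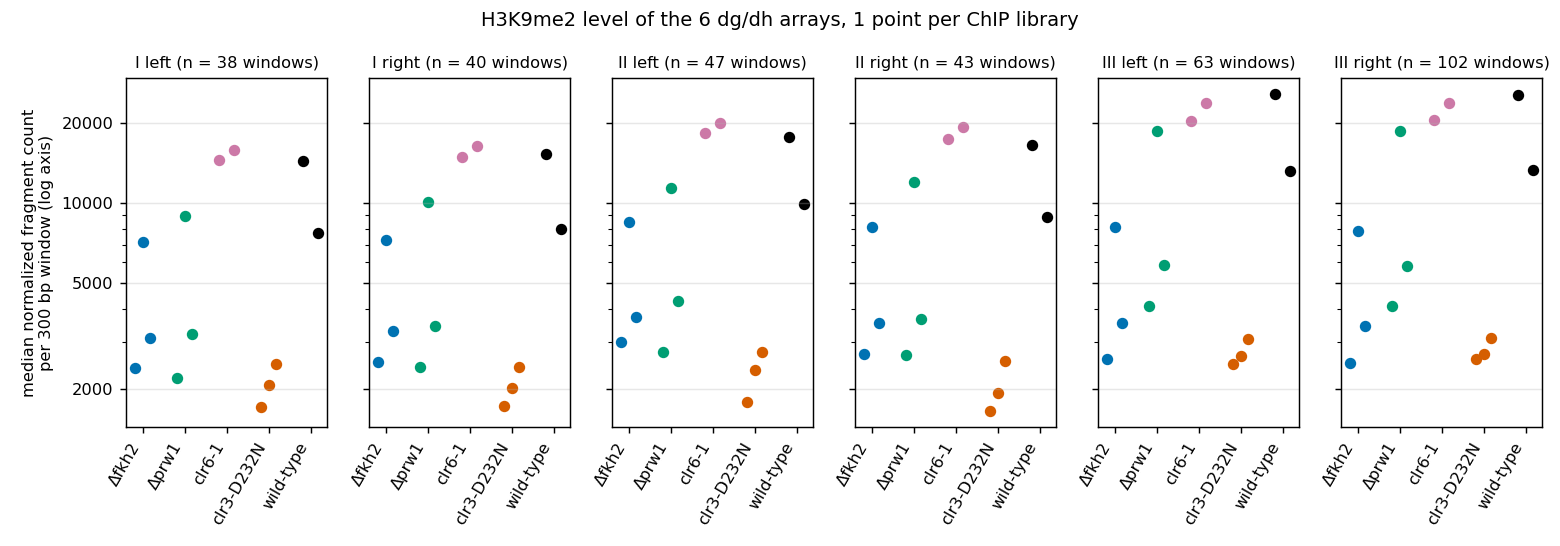
Median normalized fragment count per 300 bp window (log axis) in each of the 6 dg/dh arrays, with 1 point per library and libraries A to C from left to right within a genotype. In every array the 3 clr3-D232N libraries lie below both wild-type libraries, and Δfkh2 B and Δprw1 B lie above the other libraries of their genotypes.

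Summed over all 333 windows, the log2 level averaged 20.29 ± 0.83 in Δfkh2 (SD, n = 3) and 20.96 ± 1.116 in Δprw1 (SD, n = 3). It was 22.57 ± 0.13 for clr6-1 (SD, n = 2) and 19.56 ± 0.19 for clr3-D232N (SD, n = 3), against 22.23 ± 0.65 in wild-type (SD, n = 2). The difference from wild-type was -1.94 in Δfkh2 (2-sided exact permutation p = 0.2), -1.27 in Δprw1 (p = 0.3, same exact test), 0.34 in clr6-1 (p = 1, same exact test) and -2.67 in clr3-D232N (p = 0.1, same exact test). The smallest p these designs can give is 0.1 for 3 libraries against 2 and 0.333 for 2 against 2, so none can pass 0.05. Without wild-type C the clr6-1 difference turned to -0.12. Scaling on the windows themselves, which takes the typical enriched window as unchanged, turned the Δprw1 difference to 0.24 and gave -0.74 in Δfkh2 and -0.86 in clr3-D232N.

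Window by window, in one edgeR quasi-likelihood fit of all 13 libraries, calls required a log2 fold change beyond 1 in size and a p below 0.005 after Benjamini-Hochberg adjustment over all 1500 windows. No dg/dh window was called increased in any mutant by edgeR or DESeq2, and at an unadjusted p under 0.05 none was higher in a mutant. In clr3-D232N 315 of 333 windows were called reduced, where 64.9% of all windows tested were (0.867% were called increased). Their median log2 fold change was -2.81, beside -2.46 over all windows. The count by centromere was 71 of 78 at I, 81 of 90 at II and 163 of 165 at III. All 3 clr3-D232N libraries lay below both wild-type libraries in each of the 333 windows, and in 75.3% of all windows (0 dg/dh windows had them all above, against 6.6% of all). The count fell to 49 without wild-type B, to 169 without clr3-D232N A and to 169 without clr3-D232N B, and to 80 with scaling on the windows.

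In Δfkh2 32 of 333 windows were called reduced, below the 36% of all windows (0.133% were called increased). The fold changes were all negative, with a median of -1.97 beside -1.38 over all windows, and 269 windows had every Δfkh2 library below both wild-type libraries (65.1% of all windows did), with 0 above (2.47% of all). The count of calls depended on single libraries. It was 241 without Δfkh2 B, 2 without Δfkh2 A, 4 without Δfkh2 C and 0 without wild-type B. Leaving out a library of another mutant, which shares in the estimate of the spread, gave 146 without Δprw1 A, 229 without Δprw1 B, 16 without clr6-1 A, 16 without clr6-1 B, 21 without clr3-D232N A, 15 without clr3-D232N B and 18 without clr3-D232N C. Fitted with wild-type alone it was 0, with DESeq2 75, with scaling on the total of the bins 74 and with the replicate letter as a block 191.

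In Δprw1 13 of 333 windows were called reduced, where 48.3% of all windows were (0.0667% were called increased). The median log2 fold change was -1.06, beside -1.53 over all windows. In total 80 windows had every Δprw1 library below both wild-type libraries, while 59.1% of all windows did, and 0 had them all above (3.13% of all). Without Δprw1 B, 329 windows were called. The count was 30 without Δfkh2 B, 8 without Δprw1 A and 8 without wild-type B. The 13 called windows were all low-level ones, under 50% of the median level of their array, and 45 of the 333 windows were that low. In Δprw1 these 45 had a median log2 fold change of -1.78 and a median SE of 0.65, beside -1.03 and 0.72 in the others. In Δfkh2 18 of the 32 called windows were among the 45, whose median log2 fold change there was -1.55, beside -2.01 in the others.

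In clr6-1 4 of 333 windows were called reduced, where 36.4% of all windows were (0.4% were called increased). The median log2 fold change was 0.23, beside 0.02 over all windows. Its sign is not settled, since without wild-type C the difference in summed level turned to -0.12. Both clr6-1 libraries lay above both wild-type libraries in 63 windows and below both in 5 (30.7% and 44.9% of all windows). The 4 calls were neighbours at the outer end of array II right, described below, and the count was 2 without clr6-1 A, 2 without clr6-1 B and 2 without wild-type B.

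Among the mutants, set against each other in the same fit, clr3-D232N stood furthest from clr6-1: 321 of 333 windows were lower in clr3-D232N (41.2% of all windows were), and 0 were higher (5.67% of all), with a median difference of -3.06. Against Δfkh2, 18 windows were lower in clr3-D232N (25.4% of all windows) and 0 higher (4.13% of all), with a median of -0.87. This count was 35 with scaling on the total of the bins, 3 without clr3-D232N A, 2 without clr3-D232N B, 11 without clr3-D232N C and 3 without Δfkh2 B. Against Δprw1, 0 windows were called by edgeR (3.33% of all windows were called lower and 7% higher) and 1 by DESeq2, although the median was -1.75 and 273 were lower at an unadjusted p under 0.05. Without Δprw1 A 63 were called lower, with scaling on the total of the bins 50 and with TMM scaling on the windows 194.

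Δprw1 had 4 windows lower than Δfkh2 (20.3% of all windows) at a median difference of 0.91, and that count was 1 without Δprw1 A and 1 without Δprw1 C. At an unadjusted p under 0.05 edgeR had 3 windows higher in Δprw1, with 0 called by edgeR or DESeq2 (0% of all windows) and 1 called without Δfkh2 B. With TMM scaling on the windows 184 were called higher in Δprw1. Δprw1 had 6 windows lower than clr6-1 (10.7% of all windows) at a median of -1.28, with 325 without Δprw1 B, 3 without Δprw1 A and 0 with TMM scaling on the windows. Δfkh2 had 0 windows lower than clr6-1 by edgeR and by DESeq2 (0.2% of all windows were lower and 0.2% higher), although 324 were lower at an unadjusted p under 0.05, and 293 were called without Δfkh2 B, 175 with scaling on the total of the bins and 210 with TMM scaling on the windows. The last 2 settings also called 4 higher in Δfkh2. The median of that difference was -2.20. These comparisons share libraries with each other and with the comparisons to wild-type. Here and above, counts at an unadjusted p, under other scalings or with a library left out are given without the share of all windows. They therefore do not set dg/dh windows apart from the rest.

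The left and right arrays of a centromere had similar values, but they share most of their sequence. Of the subsequences of I left, 92.5% occur in I right. The share was 77.0% for II left in II right and 95.8% for III left in III right. A read that matches both sides was placed at one of them. The values and ratios below therefore cannot show whether the sides carry equal H3K9me2. The median log2 fold change in clr3-D232N was -2.73 and -2.75 in I left and I right, -2.74 and -2.77 in II left and II right, and -2.85 and -2.85 in III left and III right. In Δfkh2 the same arrays had -1.46 and -1.63, -1.43 and -1.73, and -2.07 and -2.10. Within a library, where scaling cancels, the log2 ratio of the mean count per window, left over right, differed from wild-type by no more than 0.08 in size at any centromere in any mutant. The largest, 0.08 at centromere II, was in Δfkh2, where the ratio was 0.19 to 0.23 against 0.12 in both wild-type libraries (exact permutation p = 0.1, adjusted p = 0.48 over 12 comparisons, higher in 3 of 3 libraries). With medians over windows that difference turned to -0.04.

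The dg/dh windows of centromere III had higher mean counts than those of centromere I in wild-type and nearly the same in Δfkh2. The log2 ratio of centromere III to centromere I was 0.08, 0.10 and 0.12 in Δfkh2 A, B and C, against 0.54 and 0.51 in wild-type B and C. It was 0.58, 0.65 and 0.55 in Δprw1, 0.36 and 0.41 for clr6-1 and 0.40, 0.33 and 0.32 in clr3-D232N. The Δfkh2 libraries lay below all others and Δprw1 above all others, with no overlap. The difference from wild-type was -0.43 in Δfkh2 (exact permutation p = 0.1, adjusted p = 0.3 over 12 comparisons), and the centromere II to centromere I ratio differed by no more than 0.07 in any mutant. Between Δprw1 and Δfkh2 the III to I ratio differed by 0.50 (exact permutation p = 0.1, the smallest possible for 3 against 3, adjusted p = 0.12 over 6 pairs, a comparison added after the values were seen). The median log2 fold change of single windows in Δfkh2 was -2.09 at centromere III, -1.57 at I and -1.64 at II. The centromeres share reads, since 69.2% of the 34-base subsequences of I left occur in III left. Without inputs, the level per repeat and the number of repeats cannot be told apart. The share of high-copy windows, described below, also differs. It was 18 of 38 in I left and 21 of 40 in I right, against 50 of 63 in III left and 90 of 102 in III right.

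**Figure D2:**
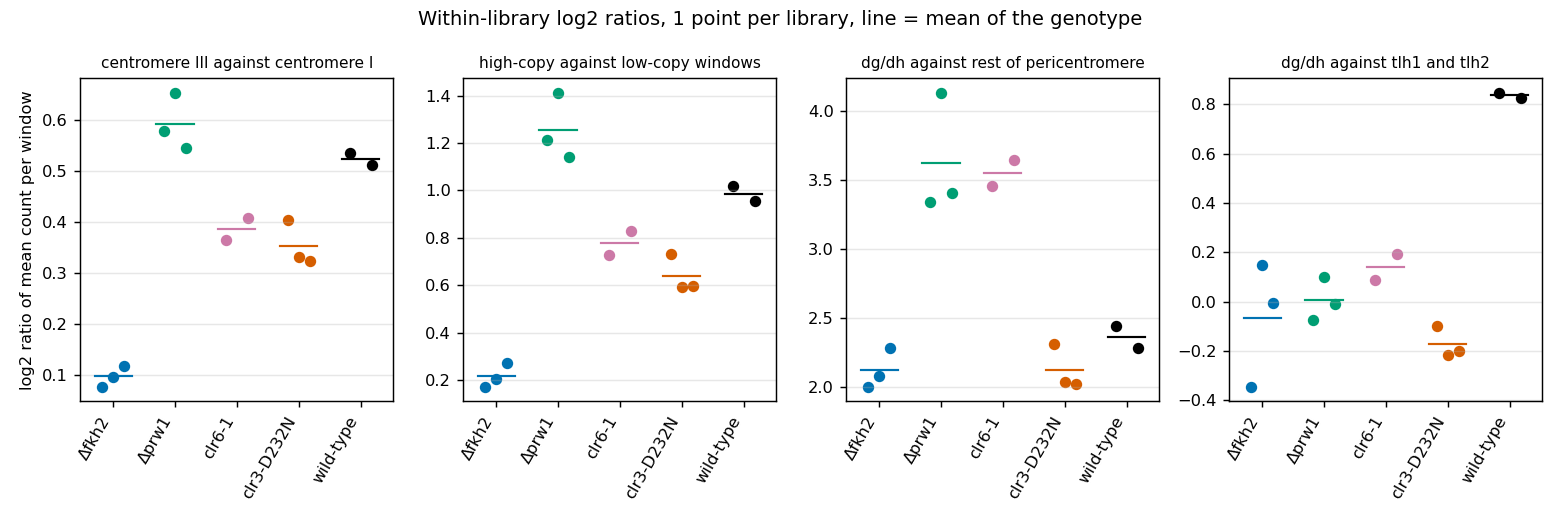
Log2 ratio of the mean normalized count per window of 2 sets of windows within each library (vertical axis, a different range in each panel), with 1 point per library and a line at the mean of each genotype. The Δfkh2 points lie lowest for centromere III against I and for high-copy against low-copy windows, and the Δprw1 points highest.

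The windows fell into 2 classes by copy number, and this division, found after the values were seen, ran through all 6 arrays. In 224 windows the 34-base subsequences had a median of 8 to 11 places on chromosomes I, II and III (high-copy, 50 of 63 windows in III left and 90 of 102 in III right), and in 109 windows 1 to 6 places (low-copy); no window had 7. In wild-type B and C the high-copy windows had median normalized counts of 25342 and 13207 and the low-copy windows 13684 and 7415. In Δfkh2 A, B and C the classes were level, at 2588, 8005 and 3551 in high-copy windows and 2613, 7534 and 3272 in low-copy windows. In Δprw1 A, B and C they were further apart, at 4137, 18780 and 5880 in high-copy windows and 1886, 7459 and 2778 in low-copy windows. The clr6-1 libraries had 20857 and 24290 in high-copy windows and 13545 and 13962 in low-copy windows. The clr3-D232N libraries had 2481, 2630 and 3058 in high-copy windows and 1305, 1564 and 1824 in low-copy windows.

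As a log2 ratio of mean counts within a library, high-copy over low-copy was 0.17, 0.21 and 0.27 in Δfkh2, 1.21, 1.41 and 1.14 in Δprw1, 0.73 and 0.83 for clr6-1 and 0.73, 0.59 and 0.60 in clr3-D232N, against 1.02 and 0.96 in wild-type. Every Δfkh2, clr6-1 and clr3-D232N library lay below both wild-type libraries and every Δprw1 library above them. The difference from wild-type was -0.77 in Δfkh2 (exact permutation p = 0.1, adjusted p = 0.178 over 16 comparisons), 0.27 in Δprw1 (exact permutation p = 0.2, adjusted p = 0.267), -0.21 in clr6-1 (exact permutation p = 0.333, adjusted p = 0.356) and -0.35 in clr3-D232N (exact permutation p = 0.1, adjusted p = 0.178). At each centromere taken alone the Δfkh2 difference was -0.68. Δprw1 and Δfkh2 differed by 1.04 (exact permutation p = 0.1, adjusted p = 0.12 over 6 pairs).

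Fold changes show the same division. In Δfkh2 the median log2 fold change was -2.07 in high-copy windows (range -2.71 to -1.31) and -1.22 in low-copy windows (range -1.93 to -0.25). The ranges overlapped, and the low-copy median of an array ranged only from -1.40 to -1.19. In Δprw1 the order was the other way, -0.99 in high-copy and -1.41 in low-copy windows. In clr3-D232N the medians were -2.85 and -2.63, and in clr6-1 0.22 and 0.47. Within the high-copy windows alone the centromere III to centromere I ratio in Δfkh2 was 0.06 to 0.09, against 0.29 in both wild-type libraries. Within low-copy windows it was -0.12 to -0.05 in Δfkh2, against 0.14 and 0.12 in wild-type. The difference within a class was thus -0.21 in both (exact permutation p = 0.1, adjusted p = 0.2 over 8 comparisons), beside -0.43 over all windows. Windows of a class share reads between arrays, so the 6 arrays are not 6 separate measurements of it. Whether the strains differ in the number of high-copy repeats was not tested.

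**Figure D3:**
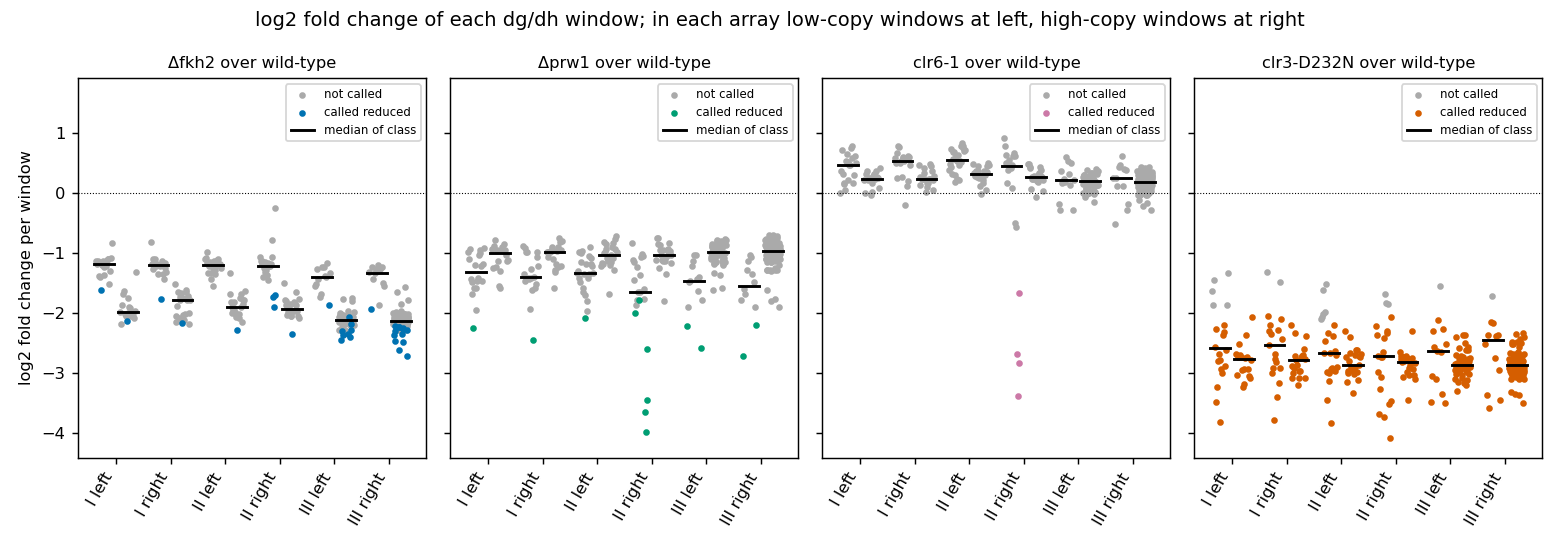
log2 fold change of each of the 333 dg/dh windows in each mutant over wild-type (vertical axis), with low-copy windows at the left and high-copy windows at the right of each array, coloured where called reduced and with a line at the median of the class. In Δfkh2 the high-copy medians lie between -2.13 and -1.79 and the low-copy medians between -1.40 and -1.19.

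Array III right shows how regular the high-copy sequence is. A stretch of 23735 bases in it (chromosome III, 1110305 to 1134039) repeats itself exactly every 6760 bases, about 3.51 times. The 3 full units differed by 1.02 to 1.04 times in mean count within any library. Reads cannot be told apart between exact copies, and the windows of each unit lie at different positions within it, so this spread is no measure of a difference between the copies. In wild-type B the 3 units averaged 24689, 25201 and 24532, and in wild-type C 12936, 13252 and 12843. In Δfkh2 A, B and C the first unit averaged 2380, 7374 and 3273.

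Folded onto 1 unit, the profiles of all 5 genotypes dipped in windows centred 3265.5 to 3285.5 and 3725.5 to 3745.5 bases from the start of the unit. In wild-type, windows near the end of the unit were about as low, with a mean of 8210 in III:1130401-1130700 (centred at 6725.5 bases) beside 8656 in III:1133701-1134000 (centred at 3265.5 bases). The window III:1133701-1134000, in the first of these dips, had the lowest fold change of Δfkh2. It had 464, 2687 and 831 normalized counts in Δfkh2 A, B and C, against 10243 and 7069 in wild-type B and C, a log2 fold change of -2.71 ± 0.66 (SE, edgeR adjusted p = 2.0e-04). It was called in clr3-D232N too, at -3.49 ± 0.68 (SE, edgeR adjusted p = 8.1e-07), and in Δprw1 it had -1.90 ± 0.65 (SE, edgeR adjusted p = 0.0072). The highest fold change of Δprw1 was in the same array, -0.71 ± 0.71 at III:1123801-1124100 (SE, edgeR adjusted p = 0.357).

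**Figure D4:**
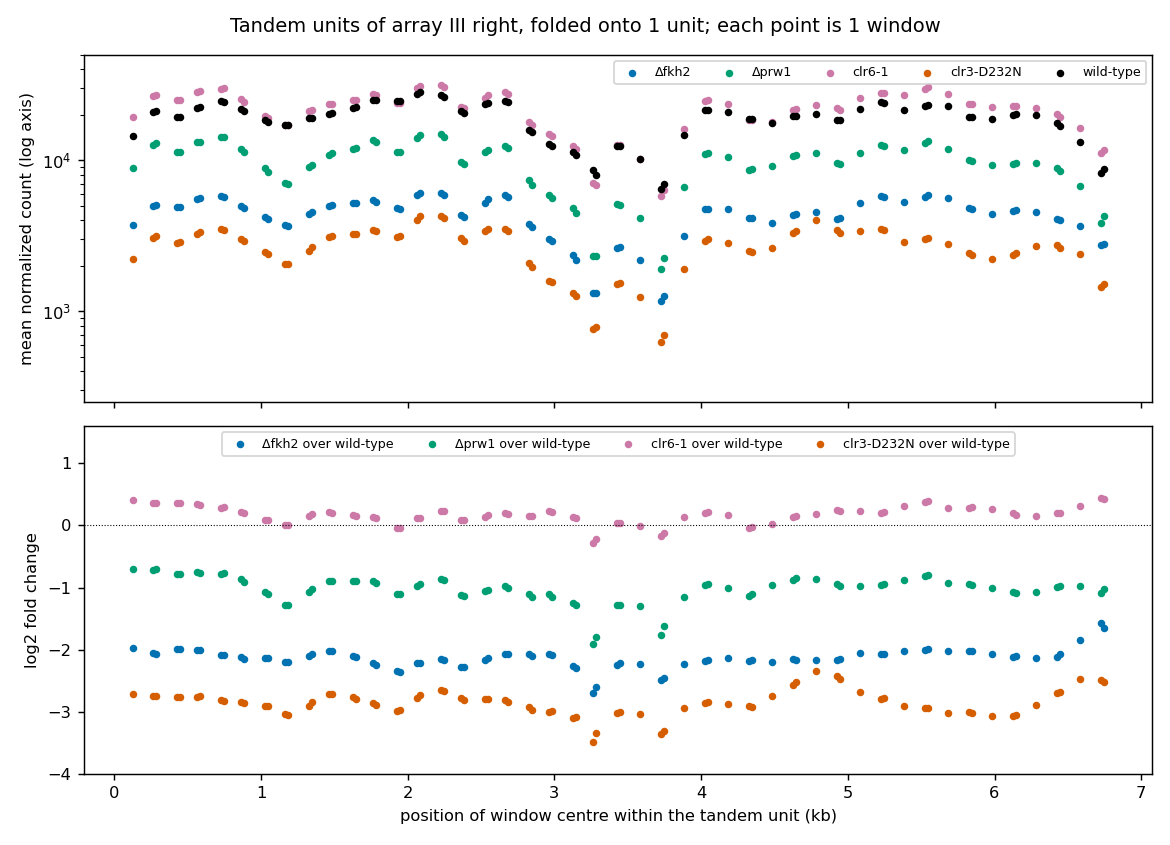
Windows of the tandem stretch of array III right plotted by the position of their centre within a unit (kb, horizontal axis), as mean normalized count of each genotype on a log axis (top) and log2 fold change over wild-type (bottom). Windows from different units at nearby positions lie close together. The units are exact copies whose reads cannot be told apart, so this closeness is no measure of likeness between them. All genotypes dip near the middle of the unit, at 3265.5 to 3285.5 and 3725.5 to 3745.5 bases.

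The highest windows, one in each array, had mean counts over all libraries of 12600 to 17406. The top one by this mean, III:1079401-1079700, overlaps the noncoding RNA genes SPNCRNA.7192 and SPNCRNA.7194. It had 4856, 12022 and 6028 normalized counts in Δfkh2, 8731, 34077 and 11547 in Δprw1, 34318 and 37591 for clr6-1 and 3812, 4746 and 5747 in clr3-D232N, against 40775 and 22021 in wild-type, where III:1080001-1080300 of the same array reached 44106 and 23951. Its GC content was 38%. The highest window of the low-copy sequences shared with another array, III:1110001-1110300, had a mean of 10788.

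Across the 333 windows GC content and mean log2 level went together (Spearman 0.65, Pearson 0.66, a description over windows that share libraries and reads).

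**Figure D5:**
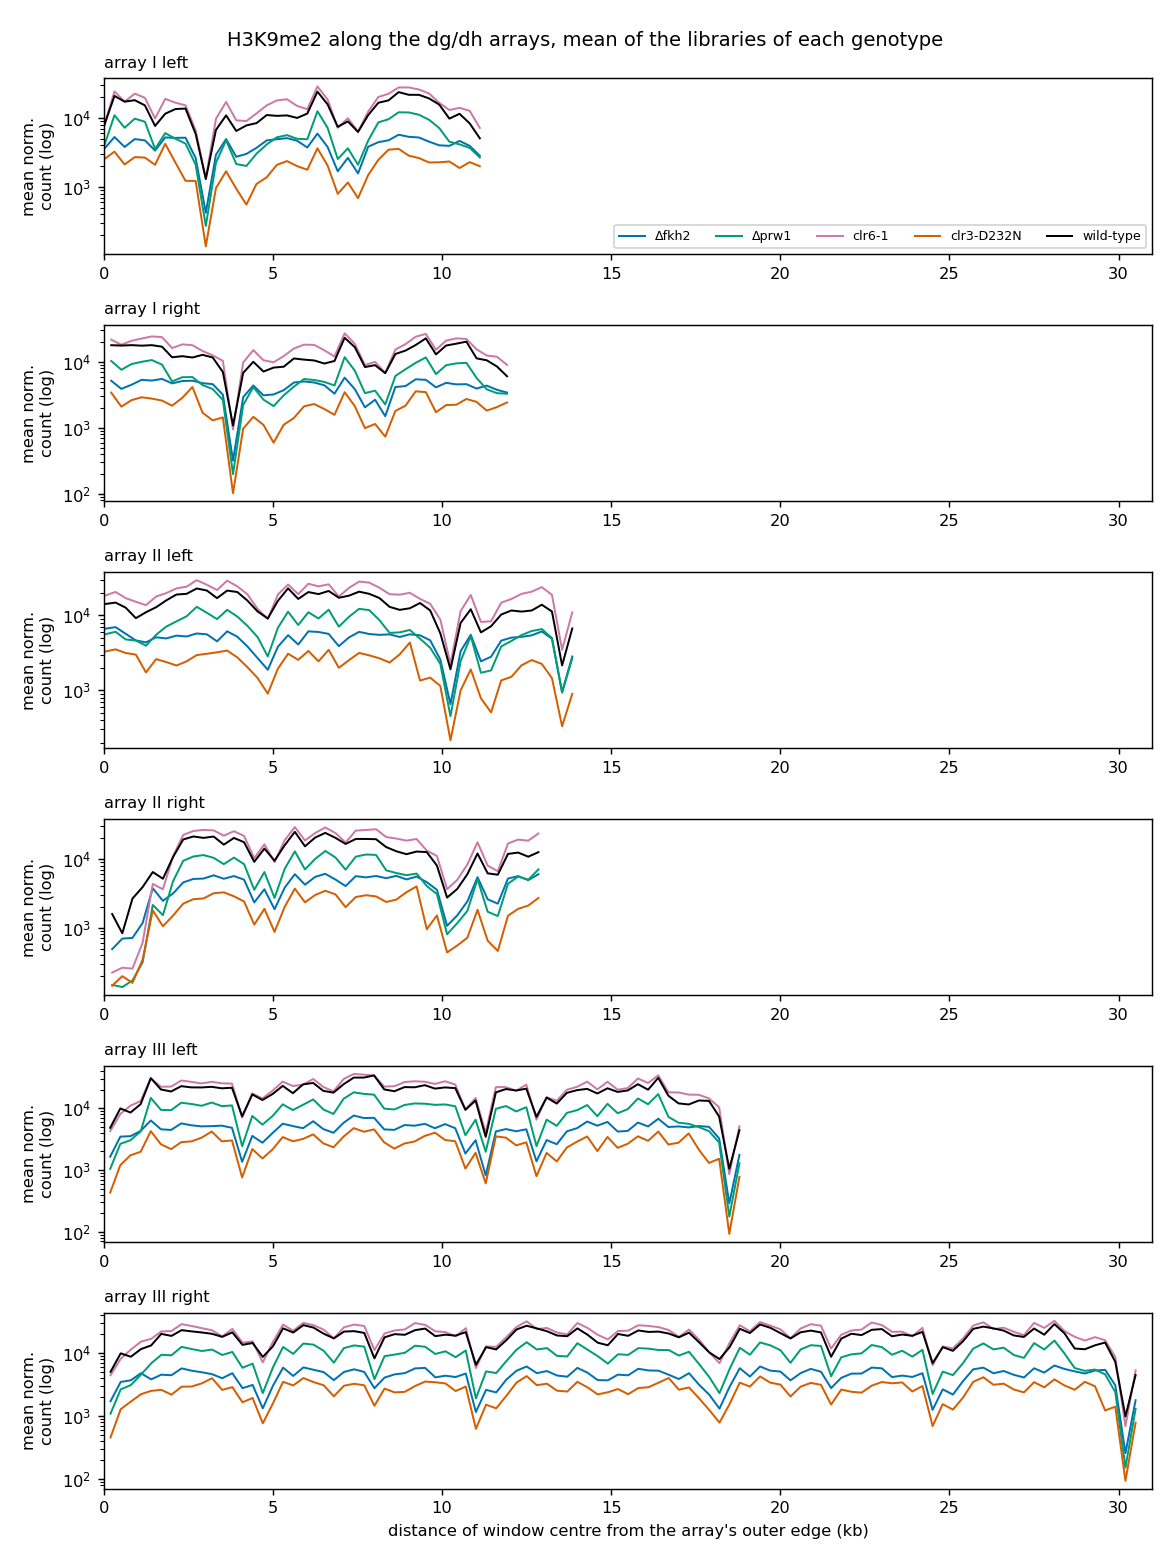
Mean normalized count of the libraries of each genotype (log axis) along the 6 arrays, by distance of the window centre from the outer edge of the array (kb). Dips are shared between genotypes, and at the outer end of II right clr6-1, Δprw1 and clr3-D232N fall towards the background.

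The profiles along the arrays kept their shape to different degrees. Across the 333 windows the Spearman correlation of the mean log2 level with that of wild-type was 0.98 in Δprw1, 0.95 in clr6-1, 0.83 in clr3-D232N and 0.74 in Δfkh2, again as a description. The spread of levels within a library, the 90th over the 10th percentile of the 320 windows shared with another array, was 2.91, 2.07 and 2.502 in Δfkh2, 4.16, 6.08 and 3.48 in Δprw1, 2.93 and 3.40 for clr6-1 and 4.85, 3.74 and 2.94 in clr3-D232N, against 3.37 and 2.90 in wild-type. The Δprw1 libraries lay above both wild-type libraries and the other genotypes overlapped them. By position, windows within 2.5 kb of the inner edge had a median fold change of -1.29 in Δfkh2, those within 2.5 kb of the outer edge -1.65 and those between -2.05. At centromere I the between windows had -1.37, less than either edge (-1.68 outer, -1.77 inner). Position was not separated from copy class. Of the 233 between windows 133 lay at centromere III, where most windows are high-copy.

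The outer end of array II right was unlike most of the arrays. Its 6 last windows, from II:1643101-1643400 to II:1644601-1644900, shared no 34-base subsequence with another array. The same held for some windows of II left, such as II:1603201-1603500 and II:1616101-1616400. Not all of this sequence was single-copy. In II:1644001-1644300, II:1644301-1644600 and II:1644601-1644900, 100% of the 34-base subsequences occurred more than once in the genome. In II:1643701-1644000 it was 44.6%. Their reads can therefore also be placed at copies that lie in no other array, whose places were not looked up. Of the 6 windows, 3 overlap the tRNA genes SPBTRNATYR.03, SPBTRNALEU.07 and SPBTRNAGLY.08. Lying at an array end, the 6 are among the least certain members. They also differ, since II:1643101-1643400 and II:1643401-1643700 were not called in clr6-1 (log2 fold changes -0.51 and -0.57). tRNA genes are known to act as barriers to heterochromatin at fission yeast centromeres. At II:1644001-1644300 the normalized counts were 405, 1313 and 423 in Δfkh2 A, B and C, 139, 248 and 127 in Δprw1, 300 and 211 for clr6-1 and 173, 150 and 152 in clr3-D232N, against 3412 and 1920 in wild-type. All 11 mutant libraries lay below both wild-type libraries there, and the background was about 105. The log2 fold change was -1.90 ± 0.49 in Δfkh2 (SE, edgeR adjusted p = 4.5e-04), -3.97 ± 0.52 in Δprw1 (SE, edgeR adjusted p = 2.4e-13), -3.38 ± 0.60 in clr6-1 (SE, edgeR adjusted p = 1.9e-07) and -4.07 ± 0.52 in clr3-D232N (SE, edgeR adjusted p = 7.3e-14).

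The neighbouring window II:1644301-1644600, which overlaps no annotated gene, had the highest fold change of Δfkh2, -0.25 ± 0.43 (SE, edgeR adjusted p = 0.609). It had 439, 1151 and 501 normalized counts in Δfkh2 and 261 and 265 in clr6-1, against 1002 and 661 in wild-type. In clr6-1 it was called at -1.66 ± 0.49 (SE, edgeR adjusted p = 0.0019). With the 13 windows left out of which under 50% was shared with another array, 320 remained, a choice made after the values were seen. Of these, 0 were called reduced in clr6-1, 9 in Δprw1, 29 in Δfkh2 and 307 in clr3-D232N. In the same order, 36.4%, 48.3%, 36% and 64.9% of all 1500 windows were. The highest fold change of clr6-1, 0.90 ± 0.80 (SE, edgeR adjusted p = 0.396), was at the inner end of the same array, in II:1632001-1632300. That of clr3-D232N, -1.32 ± 0.67 (SE, edgeR adjusted p = 0.0625), was at the inner end of I right, in I:3777601-3777900.

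Set against the rest of the pericentromere, 217 windows outside the arrays but within 10 kb of one, dg/dh windows were relatively higher in every Δprw1 and clr6-1 library than in wild-type. In the same edgeR fit the median log2 fold change outside the arrays was -2.58 in Δprw1 and -2.04 in clr6-1, where the dg/dh medians were -1.06 and 0.23, and the calls were 197 and 170 of the 217 windows, all reduced. For Δfkh2 they were 137 of the 217, at a median of -1.44, beside 32 of 333 dg/dh windows at -1.97, and the median SE was 0.43 outside the arrays and 0.72 on dg/dh. For clr3-D232N they were 159 of the 217, at a median of -2.47. The median count of these 217 windows averaged 10.2 times the background in wild-type. It was 1.43 times in Δprw1, 1.92 in clr6-1, 2.32 in clr3-D232N and 3.39 in Δfkh2. Background was not subtracted, so a typical one of these windows could fall little further in the mutants. The ratios that follow are limited by this floor. The 217 windows were also in the table only because their abundance passed the study's filter. Their median was highest in wild-type, so a window could pass mainly through the wild-type libraries. Such a choice can favour a fall in the mutants. How far it shaped the calls and ratios was not tested. The within-library log2 ratio of dg/dh windows to these windows was 3.34, 4.13 and 3.41 in Δprw1 and 3.46 and 3.65 in clr6-1, against 2.44 and 2.28 in wild-type. The difference was 1.27 in Δprw1 (exact permutation p = 0.1, adjusted p = 0.267 over 16 comparisons, higher in 3 of 3 libraries) and 1.19 in clr6-1 (exact permutation p = 0.333, adjusted p = 0.356, higher in 2 of 2 libraries). In Δfkh2 the ratio was 2.003, 2.08 and 2.28, a difference of -0.24 (exact permutation p = 0.2, adjusted p = 0.356), and in clr3-D232N 2.31, 2.04 and 2.02, a difference of -0.24 (exact permutation p = 0.3, adjusted p = 0.356). The clr6-1 difference was 2.09 at centromere I, 0.79 at II and 1.41 at III, with both libraries higher at each. With medians over windows in place of means it was 2.58 at I, 3.60 at II and 3.25 at III, so the order of the centromeres turned, and 2.66 over all of them. With medians the clr3-D232N difference was -0.61, and the Δprw1 difference at centromere II was 2.17, beside 0.99 with means.

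Set against the 39 windows of tlh1 and tlh2, the subtelomeric helicase genes that carry a dh-like sequence, dg/dh windows were relatively lower in every mutant library than in wild-type. The log2 ratio was -0.34, 0.15 and -0.01 in Δfkh2, -0.08, 0.10 and -0.01 in Δprw1, 0.09 and 0.19 for clr6-1 and -0.10, -0.22 and -0.20 in clr3-D232N, against 0.85 and 0.83 in wild-type. All 11 mutant libraries lay below both wild-type libraries. The difference was -0.90 in Δfkh2, -0.83 in Δprw1 and -1.01 in clr3-D232N (exact permutation p = 0.1 and adjusted p = 0.133 over 4 comparisons for each) and -0.69 in clr6-1 (exact permutation p = 0.333, adjusted p = 0.333). In clr6-1 the tlh windows had a median log2 fold change of 1.01, beside 0.23 on dg/dh. This comparison was added after the values were seen.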

How the data were processed

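H3K9me2 ChIP-seq counts of 13 libraries of 5 genotypes were used. The series has 30 samples. Its 15 inputs and 2 ChIP libraries without a column in the tables were not analysed here. Groups and letters came from the sample titles. The values that the authors deposited are raw counts of fragments in 1500 windows of 300 bp and in 2520 bins of 5 kb. Per the labels, reads were processed with Trimmomatic 0.39, Bowtie2 2.4.2, Picard 2.25.2 and SAMtools 1.12 on ASM294v2; duplicates and improper pairs were removed. Reads are paired-end and fragments were counted with csaw. The authors masked ade6, ura4, fkh2, prw1 and mat1 genes and kept windows above a background threshold. The tables' chromosome ends equal the lengths of RefSeq ASM294v3, which gave sequence, genes and copy counts (I, II and III only).

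Depth was 4408669 to 12641248 fragments in bins and 1253548 to 6622146 in windows. Counts were divided by DESeq2 (1.42.0) median-of-ratios factors of the bins and tested with edgeR 4.0.16 quasi-likelihood F tests in R 4.3.3 (genotype only, all libraries, adjusted p below 0.005, log2 fold change beyond 1). On simulated data for Δfkh2 against wild-type, 1500 windows with 200 changed by 2 on the log2 scale, 99 were recovered with 0 false calls. The simulated windows were drawn independently, without a shift shared by the windows of a library. It therefore gives no rate of false calls for data with such shifts. Sums and ratios were compared by 2-sided exact permutation tests in Python 3.11.15, adjusted by Benjamini-Hochberg within each family. Named windows were, by rule, the highest and lowest of each array by mean count and those with the lowest and highest fold change of each mutant; others were picked with values in view. The lowest window of some arrays is not reported here. Alternatives were other scalings, DESeq2, other thresholds, medians, windows wholly inside an array, a replicate block and leaving out each library. Members and lists were chosen with earlier results of these data known. Every member held at least 36 fragments in each library. Counting error was small beside the spread between libraries at the median window, but not at the lowest windows.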

Additional observations from a re-analysis of the deposited data

How the results depend on the processing

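At the median window the spread between 2 or 3 libraries was the limit, and depth was not. The lowest window held 36 fragments in 1 library, and at such windows counting error adds to the spread. Where a value changed, the cause was not tested except where a setting tests fewer windows or uses fewer libraries. The count of windows called reduced in Δfkh2 was 32, and it was 75 with DESeq2, 74 with scaling on the total of the bins, 0 with only Δfkh2 and wild-type libraries in the fit, 239 at an adjusted p below 0.05 and 0 to 241 when 1 library was left out. In Δprw1 the count was 13, and it was 3 with TMM scaling on the windows, 52 at an adjusted p below 0.05 and 8 to 329 when 1 library was left out. In clr6-1 it was 4, and 0 with windows shared with another array only (chosen after seeing the data) and 2 to 4 when 1 library was left out. In clr3-D232N it was 315, and 80 with TMM scaling on the windows and 49 to 329 when 1 library was left out.

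Between mutants, the windows lower in clr3-D232N than in Δfkh2 numbered 18, with 35 on the total of the bins and 2 to 22 when 1 library was left out. Those lower in clr3-D232N than in Δprw1 numbered 0, with 1 by DESeq2, 50 on the total of the bins, 194 with TMM on the windows and 0 to 63 when 1 library was left out. Those lower in clr3-D232N than in clr6-1 numbered 321, with 222 to 294 when 1 library was left out, and those higher numbered 0, with 1 under TMM on the windows. For Δprw1 against Δfkh2, 4 were lower, with 1 to 4 when 1 library was left out, and 0 were higher, with 184 under TMM on the windows and 0 to 1 when 1 library was left out. For Δprw1 against clr6-1, 6 were lower, with 0 under TMM on the windows and 3 to 325 when 1 library was left out. For Δfkh2 against clr6-1, 0 were lower, with 175 on the total of the bins, 210 with TMM on the windows and 0 to 293 when 1 library was left out, and 0 were higher, with 4 on the total of the bins and 4 with TMM on the windows.

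TMM scaling on the windows turned the Δprw1 level difference to 0.24 over all dg/dh windows, 0.20 at centromere I, 0.20 at centromere II and 0.27 at centromere III, and to 0.19, 0.21, 0.20, 0.20, 0.26 and 0.27 in arrays I left, I right, II left, II right, III left and III right. That scaling raised the median log2 fold change of all windows to -0.25 for Δfkh2, -0.03 for Δprw1, 0.18 for clr6-1 and -0.57 for clr3-D232N, and in the same order the dg/dh medians relative to it were -0.59, 0.30, 0.24 and -0.34, beside -0.59, 0.47, 0.21 and -0.35 with the bins. When 1 library was left out, the clr6-1 level difference was -0.12 to 0.79 over all dg/dh windows, -0.0466 to 0.854 at centromere I, -0.00864 to 0.888 at centromere II, -0.20 to 0.73 at centromere III, -0.0601 to 0.835 in I left, -0.0343 to 0.872 in I right, -0.0519 to 0.843 in II right, -0.19 to 0.73 in III left and -0.20 to 0.73 in III right. The negative values were those without wild-type C.

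Small ratio differences changed sign. With medians over windows in place of sums, the left to right difference at centromere I was 0.000936 in Δfkh2 and 0.0215 in clr6-1, at centromere II -0.0390 in Δfkh2, -0.0731 in Δprw1 and -0.0729 for clr6-1, and at centromere III 0.00643 in Δprw1 and -0.0270 in clr3-D232N. The centromere II to I difference in Δfkh2 was 0.0112 with medians and 0.00759 with windows wholly inside an array. Dg/dh against the rest of the pericentromere in Δfkh2 was 0.45 at centromere II and 0.35 at centromere III with medians. In clr3-D232N the high-copy to low-copy difference at centromere II was 0.00759, and the centromere III to I difference in high-copy windows 0.0465, with medians. The left to right difference at centromere I in clr3-D232N was -0.00794 with windows wholly inside an array and -0.0107 with windows shared with another array only, and that at centromere II in Δprw1 was -0.0106 with windows shared with another array only. When 1 library was left out, the left to right difference was -0.00423 to 0.0218 at centromere II in Δprw1. At centromere III it was -0.0145 to 0.00776 in Δprw1, -0.00346 to 0.0131 for clr6-1 and -0.00341 to 0.0178 in clr3-D232N, and the centromere II to I difference was -0.0123 to 0.00683 in Δfkh2 and -0.00191 to 0.00216 in Δprw1. Of 1344 alternative values, 1244 kept their direction and their side of the threshold, or for a count stayed within 1.5 times.

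Libraries with the same letter A, B or C did not regularly share a profile. Of 22 pairs with the same letter, 12 had deviations from their group means that correlated above 0.1 over all windows (lowest -0.72, highest 0.66). Over dg/dh windows 9 pairs did (lowest -0.80, highest 0.92), and 4 of 13 libraries correlated best with their own letter. Such a correlation cannot show a shift of level common to all windows. Library B had the highest summed dg/dh level in Δfkh2, Δprw1, clr6-1 and wild-type, and library C in clr3-D232N. Whether libraries of a letter share an effect on level was not tested. With the replicate letter as a block, 191 windows were reduced in Δfkh2, 4 were lower in clr3-D232N than in Δprw1, 53 were lower in Δprw1 than in clr6-1, and 266 were lower and 1 higher in Δfkh2 than in clr6-1. No paired difference of levels or ratios was made for clr6-1, which shares 1 letter with wild-type.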
